A study of Mus musculus with 36 samples.

Results

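Tight junctions seal the space between neighbouring epithelial cells, and 9 of their genes were followed here across a study of plakophilin 4 (PKP4) in mouse keratinocytes. The 9 genes (Cldn1, Cldn4, Cldn7, Ocln, Marveld2, F11r, Tjp1, Tjp3 and Cgn) were taken by symbol from a table of read counts for 55358 genes, and all 9 were found. RNA was sequenced from 36 libraries, 3 in each of 12 groups formed by 3 genotypes and 4 culture conditions. WT cells carried intact Pkp4, and PKP4-KO cells lacked exon 9 of Pkp4 on both alleles. Both came from intercrosses of heterozygous siblings on a C57BL/6J background. Rescue cells were PKP4-KO keratinocytes transduced with lentivirus for human PKP4 tagged with EGFP and selected with puromycin. Cultures of each genotype lasted 24 h or 72 h in low calcium medium (LCM), which keeps keratinocytes in a basal state with few junctions, or in high calcium medium (HCM), which starts junction assembly and differentiation. The sample titles hold LD or HD and no hours, and were read here as 24 h and 72 h. Any further difference between LD and HD cultures cannot be told apart from time. The keratinocytes came from newborn pups, WT and PKP4-KO cells from different animals, and how many animals or isolations lie behind the 3 libraries of a group is not given in the sources used here. P-values therefore measure only the spread between these libraries, which may be technical. The transgene cannot be told apart from transduction and selection, which Rescue cells had undergone.

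In a tight junction, membrane proteins form strands that close the gap between cells, and scaffold proteins on the inner face tie the strands to actin. Claudins build the strands and set which ions and solutes pass. Occludin (Ocln) and tricellulin (Marveld2) are MARVEL-domain proteins, the first along contacts of a cell pair and the other where 3 cells meet, and F11r encodes JAM-A, an immunoglobulin-like adhesion protein. ZO-1 (Tjp1) and ZO-3 (Tjp3) are the scaffolds that bind claudins and occludin, and cingulin (Cgn) links the plaque to actin and myosin. In the epidermis, functional tight junctions lie in the granular layer, and loss of Cldn1 is known to break the water barrier of mouse skin.

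The libraries held 13602728 to 22467187 counts, and 15114 genes passed the filter on low counts. Levels are given as CPM, the counts per 1000000 of a library, on library sizes adjusted by TMM, the trimmed mean of M-values, and differences as log2 fold changes ± SE from edgeR's quasi-likelihood test over all 36 libraries, with p-values adjusted over the 15114 genes and called below 0.05. TMM factors were 0.481 to 0.546 in the 3 PKP4-KO libraries at 72 h HCM and 0.705 to 1.39 in the other 33, so values of that group depend most on the scaling. Pkp4 itself was 48.9, 41.6 and 41.5 CPM in WT and 9.65, 8.24 and 8.42 CPM in PKP4-KO at 24 h HCM, and its log2 fold change lay between -2.98 and -1.86 over the 4 culture conditions. Reads on the GFP-PKP4 sequence reached 124 to 562 CPM in Rescue and at most 8.27 CPM in the other libraries, so that no library went against its label. Of 8 keratinocyte markers, none was at 0 in any library. The mean level (TPM, which divides by length and sums to 1000000) was higher in PKP4-KO than in WT and Rescue for Krt5, Krt15, Krt1 and Krt10, lower than in both for Itga6 and Itgb4 and between them for Krt14 and Trp63, and the summed level of all 8 was 21410 to 69440 TPM. Summed lists for fibroblasts, melanocytes and endothelium stayed at or below 8.01 TPM. Of 6 markers of simple epithelia, 5 (Krt8, Krt18, Krt19, Krt20 and Epcam) had a lower mean TPM in PKP4-KO than in WT and Rescue, and the summed list was 8.65 to 62.9 TPM in WT, 1.99 to 14.3 in PKP4-KO and 41.6 to 190.5 in Rescue. Of 5 immune markers, Cd207 was at 0 in every library and Ptprc had at most 4 counts, and the list's sum, nearly all of it Cd68, was 14.7 to 31.3 TPM in PKP4-KO against 51.0 to 69.3 in WT and 130.5 to 219.8 in Rescue. Krt7, the simple-epithelium marker not named above, had a mean of 72.3 TPM in Rescue, 1.78 in WT and 2.54 in PKP4-KO. From WT to PKP4-KO the simple-epithelium and immune sums fell, as did most of the tight junction genes. In Rescue both sums stood above WT. The tight junction genes' median log2 fold change between Rescue and WT was -0.33 to 0.42 over the 4 culture conditions. In each, 2 to 4 of the 8 tested were called, beside 23.2% to 36.2% of all tested genes in either direction. The part of these lists in the results was not tested. In these bulk samples, fewer cells of a type and less RNA per cell cannot be told apart.

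The genes lie on different chromosomes, apart from Ocln and Marveld2, which are neighbours on chromosome 13 of GRCm39 with 42.9 kb and 0 protein-coding genes between them. Cldn1 is at chr16:26175392-26190596, Cldn4 at chr5:134973973-134975788 and Cldn7 at chr11:69852648-69858711. Ocln is at chr13:100630334-100689535, Marveld2 at chr13:100732464-100753489 and F11r at chr1:171265092-171292958. Tjp1 is at chr7:64945898-65177529, Tjp3 at chr10:81109034-81127417 and Cgn at chr3:94667376-94695136. The counts were summed over each whole gene, and Cldn4 has a single exon while Tjp1 has 27. Tjp3 shares 47 bp of exon with Apba3 on the other strand and Cldn7 shares 331 bp with Elp5. The strand setting of the counting is not given in the sources used here, so the few reads of these 2 genes are uncertain.

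The 250 bases upstream of the start of the canonical transcript are shown for the 3 genes with the largest falls in PKP4-KO at 24 h HCM (Cldn4, Cldn1 and Marveld2) and for F11r, which had the smallest, so that regions before genes of unequal response can be read side by side. They were read from GRCm39 on the gene's own strand, 5′ to 3′, and end at the base before the start: chr5:134975789-134976038 on the reverse strand for Cldn4, chr16:26190597-26190846 on the reverse strand for Cldn1, chr13:100753480-100753729 on the reverse strand for Marveld2 and chr1:171264842-171265091 on the forward strand for F11r. Capitals mark matches, on either strand, to 3 motifs: the E-box CACCTG (bound by Snail and ZEB proteins), the AP-1 site TGANTCA and the GC box GGGCGG (bound by Sp and Klf proteins).
Cldn4: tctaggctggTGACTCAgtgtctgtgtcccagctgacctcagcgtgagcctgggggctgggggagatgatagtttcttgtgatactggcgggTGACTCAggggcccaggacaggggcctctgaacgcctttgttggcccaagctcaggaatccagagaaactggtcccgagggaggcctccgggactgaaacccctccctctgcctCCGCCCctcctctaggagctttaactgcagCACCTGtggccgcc
Cldn1: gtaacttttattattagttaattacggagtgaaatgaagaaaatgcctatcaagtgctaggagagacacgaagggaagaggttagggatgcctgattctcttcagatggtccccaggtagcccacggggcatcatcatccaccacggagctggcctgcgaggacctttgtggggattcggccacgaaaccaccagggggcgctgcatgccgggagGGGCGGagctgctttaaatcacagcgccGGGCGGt
Marveld2: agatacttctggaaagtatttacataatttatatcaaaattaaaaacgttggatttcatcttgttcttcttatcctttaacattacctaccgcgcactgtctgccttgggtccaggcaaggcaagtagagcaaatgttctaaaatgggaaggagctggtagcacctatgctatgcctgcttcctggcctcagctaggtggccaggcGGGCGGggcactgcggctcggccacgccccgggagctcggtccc
F11r: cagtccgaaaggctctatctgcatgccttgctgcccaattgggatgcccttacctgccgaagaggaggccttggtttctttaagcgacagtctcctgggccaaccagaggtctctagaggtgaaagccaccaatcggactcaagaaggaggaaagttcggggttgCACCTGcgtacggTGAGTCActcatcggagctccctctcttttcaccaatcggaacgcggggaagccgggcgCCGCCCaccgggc
In these windows, Cldn4 and F11r hold both an E-box and an AP-1 site, while Cldn1 and Marveld2 hold only GC boxes among the 3 motifs. Over the 9 genes, the E-box was found in 3 windows (16.9% of 12223 windows of the same length), the AP-1 site in 2 (5.0%) and the GC box in 7 (49.2%), and the Grainyhead-like core AACNNGTT, also searched, in 0 (3.2%). The 12223 windows lie before tested protein-coding genes of most chromosomes, so that of Cldn7 is not among them. Among the tested genes, the E-box and AP-1 windows belong to Cldn4, which fell most, and to F11r, which fell least, and the other E-box window is that of Cldn7, which was not tested. A match describes letters in this window and is not a binding site.

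WT cells in HCM for 24 h expressed the genes at very unequal levels. On the TPM scale, which allows genes to be compared, Cldn4 led with 484 ± 99.5 TPM (SD, n = 3), followed by F11r with 87.1 ± 22.5 and Cldn1 with 83.0 ± 37.2, 2 levels within their spread. The scaffolds Tjp1 (32.9 ± 17.6 TPM) and Cgn (20.7 ± 5.91 TPM) came next, then Ocln (11.8 ± 4.94 TPM) and Marveld2 (11.1 ± 4.13 TPM), which also lay within each other's spread. Tjp3 was near the limit of detection with 0.300 ± 0.0440 TPM. Cldn7 had 0 to 3 counts in each of the 36 libraries, below or at the floor of 3 counts used here. It did not pass the filter on low counts, so that it was not tested and no difference in it was detectable at this depth. The floor covers counting error only. In PKP4-KO cells of the same culture the order was led by F11r with 48.1 ± 12.5 TPM, followed by Cldn4 with 16.4 ± 3.71 TPM, Tjp1 with 4.997 ± 1.36 TPM and Cldn1 with 3.56 ± 0.958 TPM.

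Whether loss of PKP4 goes with a different expression of junction genes was asked first at 24 h HCM, when junctions form. All 8 tested genes fell from WT to PKP4-KO, where 42.8% of all tested genes were called in either direction and 22.2% as lower. In all 8, no PKP4-KO library reached the lowest WT library, which was true in one direction or the other of 46.7% of all genes. The members' median log2 fold change was -3.80, beside -0.0016 over all tested genes.

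The claudins showed the deepest falls. Cldn4, a claudin of the upper epidermal layers, was at 337, 409 and 422 CPM in WT, 13.7, 12.1 and 12.04 CPM in PKP4-KO and 270.4, 313 and 210.2 CPM in Rescue. All PKP4-KO libraries lay far below the other 6, a 30.8-fold lower level than in WT (-4.95 ± 0.20, adjusted p = 3.73e-17). Cldn1, the claudin on which the skin barrier depends, was at 209, 131 and 169 CPM in WT, 6.66, 8.12 and 7.02 CPM in PKP4-KO and 94.1, 88.1 and 91.0 CPM in Rescue. It was 23.4-fold lower in PKP4-KO than in WT (-4.54 ± 0.22, adjusted p = 6.57e-16), and the Rescue libraries stood between the other genotypes without touching either.

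The MARVEL-domain genes fell alongside. Marveld2 was at 16.5, 13.0 and 18.9 CPM in WT, 1.21, 1.17 and 0.295 CPM in PKP4-KO and 12.5, 15.0 and 11.2 CPM in Rescue, with only 26, 28 and 4 counts behind the PKP4-KO values. Rescue libraries overlapped those of WT and PKP4-KO libraries did not (-4.10 ± 0.34, adjusted p = 6.86e-11). Ocln was at 24.5, 16.2 and 22.4 CPM in WT, 2.14, 1.92 and 0.739 CPM in PKP4-KO and 15.6, 19.5 and 16.0 CPM in Rescue, and it showed the same order of groups (-3.67 ± 0.35, adjusted p = 8.34e-10). For both genes PKP4-KO replicate 3 was the lowest library.

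F11r stood out by how little it moved. It was at 100.2, 98.9 and 105 CPM in WT, 52.8, 58.5 and 50.7 CPM in PKP4-KO and 85.9, 82.3 and 90.1 CPM in Rescue. The 3 groups were apart from one another, and the level in PKP4-KO was 1.88-fold lower than in WT (-0.91 ± 0.10, adjusted p = 1.91e-08).

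Among the scaffolds, Tjp1 was at 149, 89.6 and 87.0 CPM in WT, 16.6, 17.7 and 14.9 CPM in PKP4-KO and 77.7, 88.2 and 94.3 CPM in Rescue. WT replicate 1 was the highest library, Rescue overlapped WT, and PKP4-KO was 6.62-fold below WT (-2.72 ± 0.28, adjusted p = 3.61e-09). Cgn was at 57.1, 52.4 and 53.8 CPM in WT, 4.80, 3.47 and 2.36 CPM in PKP4-KO and 22.5, 28.0 and 22.1 CPM in Rescue, with no overlap between any of the groups. It fell 15.3-fold in PKP4-KO (-3.92 ± 0.26, adjusted p = 8.02e-13). Tjp3 had 9, 8 and 9 counts in WT, 4, 1 and 1 in PKP4-KO and, in Rescue, 20, 40 and 16, so its difference from WT of -2.21 ± 0.69 (adjusted p = 0.0107) rests on few reads, and without PKP4-KO replicate 2 it was -1.80 and no longer called.

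**Figure D1:**
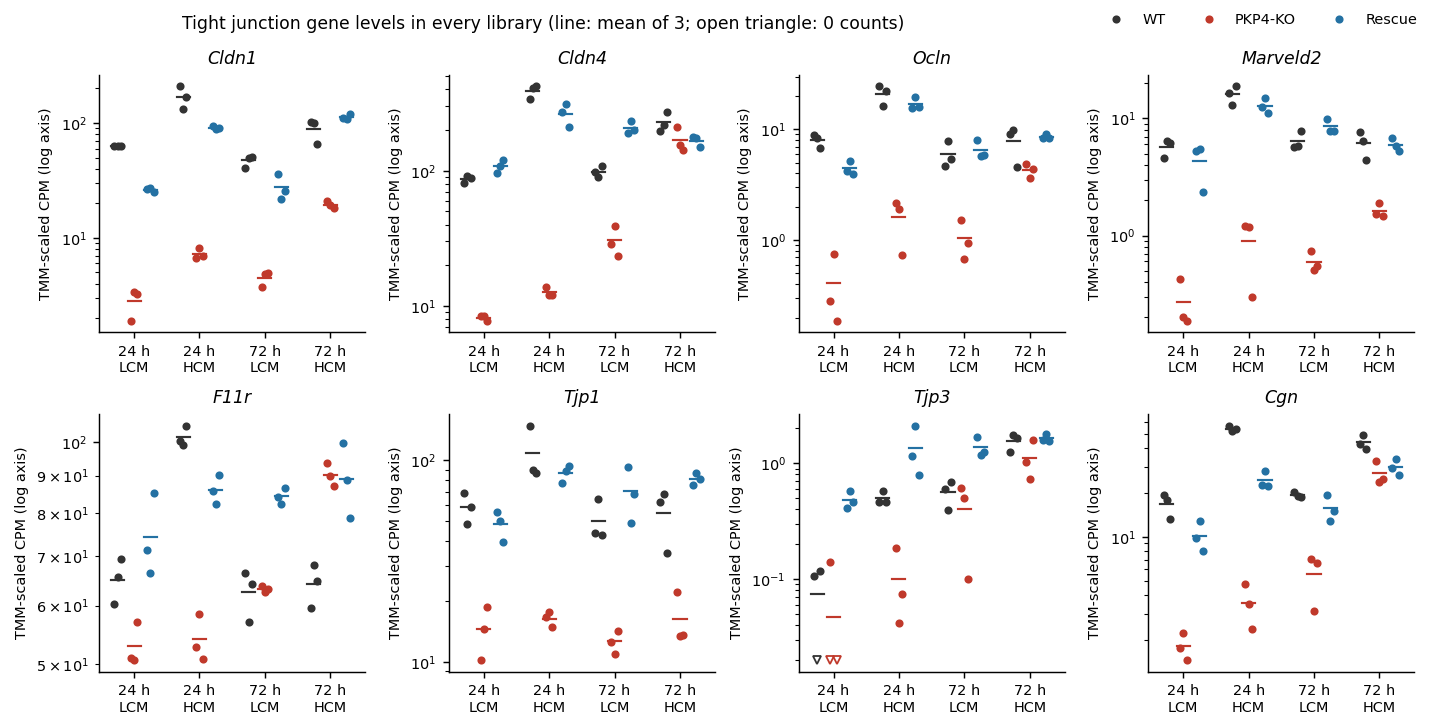
Level of each of the 8 tested tight junction genes in every library, as TMM-scaled CPM on a log axis that differs between panels, by culture condition and genotype (black WT, red PKP4-KO, blue Rescue; horizontal lines are means of 3 libraries, open triangles libraries with 0 counts, drawn at the foot of the panel). The PKP4-KO points of Cldn1, Marveld2 and Tjp1 lie below all WT and Rescue points in every culture, while those of Cldn4 and F11r at 72 h HCM do not.

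Most of the genes were also lower in PKP4-KO in the other 3 cultures, and the falls were smallest at 72 h HCM, where the members' median was -0.79. At 24 h LCM, 7 of the 8 genes were lower in PKP4-KO (40.2% of all tested genes called in either direction, 20.6% as lower), at 72 h LCM 6 (45.1%, 23.8% as lower), and at 72 h HCM 6 were lower and 1, F11r, higher (51.8%, 29.9% as lower and 21.9% as higher). Cldn1, Marveld2, Tjp1, Ocln, Cgn and Cldn4 were lower in all 4 cultures, which 1536 of the 15114 tested genes (10.2%) were. Cldn1 was at 63.2, 62.8 and 63.6 CPM in WT and 1.90, 3.36 and 3.28 CPM in PKP4-KO at 24 h LCM, a difference of -4.45 ± 0.22, and it kept differences of -3.39 ± 0.21 at 72 h LCM and -2.20 ± 0.20 at 72 h HCM. Tjp1 differed by nearly the same amount in 3 cultures (-2.01 ± 0.27 at 24 h LCM, -1.98 ± 0.27 at 72 h LCM and -1.75 ± 0.27 at 72 h HCM). F11r was lower in PKP4-KO at 24 h LCM (-0.30 ± 0.10), a difference that was no longer called without PKP4-KO replicate 1 or 2 or WT replicate 3 (-0.27, -0.27 and -0.25). At 72 h LCM its difference was 0.01, with a 95% interval of -0.19 to 0.22. Tjp3 was at or under the floor of 3 counts in all WT and PKP4-KO libraries at 24 h LCM.

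At 72 h HCM, Cldn4 stood at 196, 217 and 273 CPM in WT and 211, 154 and 142 CPM in PKP4-KO. PKP4-KO replicate 1 lay above WT replicate 1, so the groups overlapped, and the difference was -0.44 ± 0.17 (adjusted p = 0.0324). Ocln was at 9.04, 9.81 and 4.61 CPM in WT and 4.83, 3.63 and 4.43 CPM in PKP4-KO, and WT replicate 3 overlapped the PKP4-KO libraries (-0.87 ± 0.33, adjusted p = 0.0291). Cgn, at 42.8, 49.3 and 39.5 CPM in WT and 32.9, 23.4 and 24.5 CPM in PKP4-KO, did not overlap (-0.70 ± 0.23, adjusted p = 0.0138). The calls of these 3 genes rested on single libraries. Without PKP4-KO replicate 2, and likewise without PKP4-KO replicate 3, 4 genes were called, 3 of them lower. Single calls were also lost without WT replicates 1, 2 and 3 (Ocln -0.77 and -0.69, Cgn -0.62, Cldn4 -0.30). F11r was at 59.6, 68.1 and 64.7 CPM in WT and 93.5, 90.0 and 87.2 CPM in PKP4-KO, higher in all 3 PKP4-KO libraries (0.49 ± 0.10, adjusted p = 0.000205). Its direction depended on the scaling. Without TMM factors, the median of all genes moved from -0.07 to -0.83 and F11r to -0.28, while the other 6 called genes stayed lower, Cldn4 at -1.18 and Cldn1 at -3.00. Over all genes, the share of calls that were higher in PKP4-KO went without TMM factors from 42.2% to 13.5% at 72 h HCM, from 48.9% to 34.1% at 24 h LCM and from 47.3% to 25.7% at 72 h LCM.

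**Figure D2:**
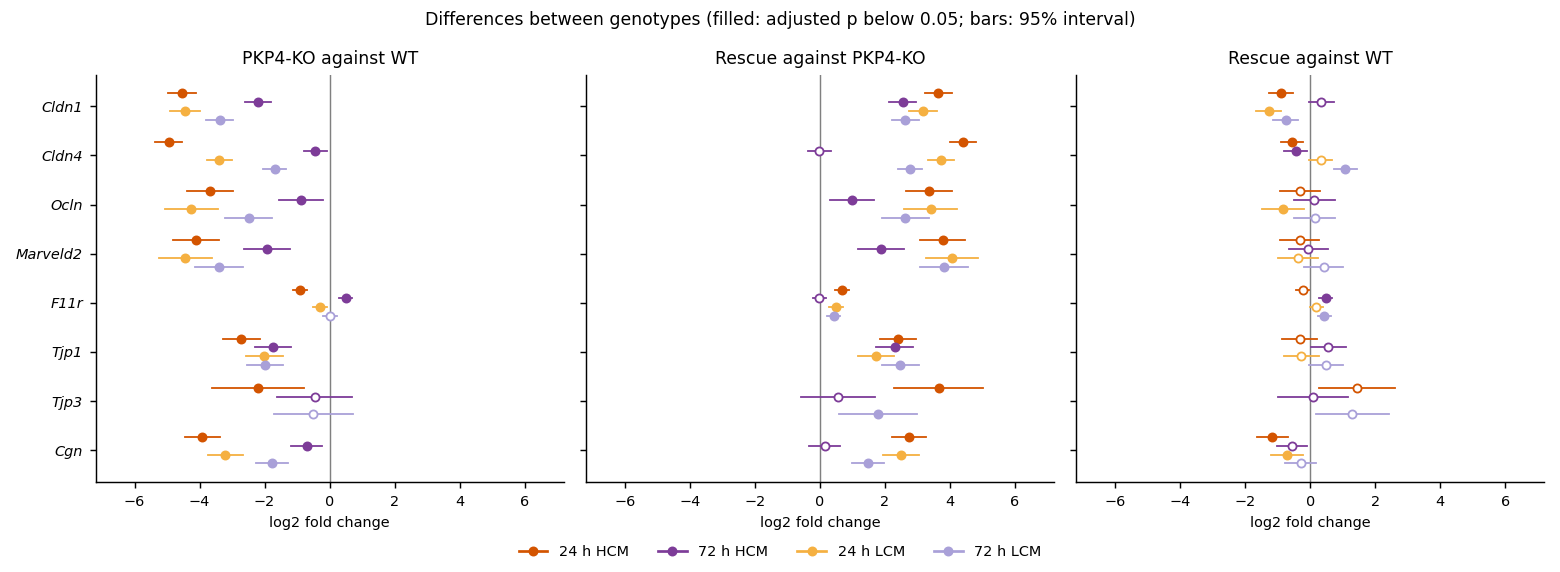
Log2 fold changes of the 8 tested genes between genotypes in the 4 culture conditions (points, filled where the adjusted p-value was below 0.05; bars are 95% intervals; Tjp3 is left out where a group was at or under the floor of 3 counts). At 24 h HCM all 8 points lie left of 0 in the comparison of PKP4-KO with WT and right of 0 in that of Rescue with PKP4-KO. In the latter, the 72 h HCM points of Cldn4, F11r and Cgn lie at or near 0, and that of Tjp3 lies at 0.55, not called.

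Rescue cells were compared with PKP4-KO cells to see which genes differed once PKP4 was supplied, and the PKP4-KO libraries are shared with the comparison above. All 8 tested genes were higher in Rescue at 24 h HCM, 24 h LCM and 72 h LCM, where 40.8%, 33.7% and 41.5% of all tested genes were called in either direction and 21.7%, 18.2% and 23.3% as higher. At 72 h HCM 4 were higher (66.7%, 37.2% as higher). At 24 h HCM the differences were 4.39 ± 0.20 for Cldn4, 3.78 ± 0.34 for Marveld2, 3.64 ± 0.21 for Cldn1, 3.37 ± 0.34 for Ocln, 2.75 ± 0.25 for Cgn, 2.40 ± 0.27 for Tjp1 and 0.67 ± 0.10 for F11r. In LCM the largest estimated difference was that of Marveld2 (4.06 at 24 h and 3.83 at 72 h). At 24 h LCM Marveld2 was at 5.23, 5.50 and 2.36 CPM in Rescue against 0.423, 0.201 and 0.187 CPM in PKP4-KO. Tjp3 had 9, 14 and 7 counts in Rescue and 0, 0 and 3 in PKP4-KO at 24 h LCM. With each PKP4-KO library set to the floor of 3 counts, its level was at least 2.88-fold higher in Rescue. At 72 h LCM its difference of 1.80 ± 0.58 was no longer called without Rescue replicate 1 (1.62) or PKP4-KO replicate 3 (1.30). There the F11r difference of 0.42 ± 0.10 was not called in a fit of these 6 libraries with the replicate number as a block (0.38), which left 7 genes called.

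At 72 h HCM the genes split. Cldn1 was at 111, 108 and 119 CPM in Rescue against 21.0, 19.2 and 18.1 CPM in PKP4-KO (2.54 ± 0.20), and Tjp1 (2.30 ± 0.28), Marveld2 (1.88 ± 0.34) and Ocln (0.99 ± 0.33) were higher too. Cldn4, at 178, 175 and 150.0 CPM in Rescue, overlapped PKP4-KO with a difference of -0.01 and a 95% interval of -0.36 to 0.33. F11r (-0.02, interval -0.23 to 0.19) and Cgn (0.14, interval -0.34 to 0.62) also overlapped. So did Tjp3, which had a difference of 0.55 and was not called, with 33 to 46 counts in Rescue and 5 to 14 in PKP4-KO. The split also depended on the scaling: without TMM factors all 8 genes were called higher in Rescue, with the median of all genes at 1.37 in place of 0.20. The share of all called genes that were higher in Rescue went from 55.8% to 84.7% at 72 h HCM and from 56.0% to 76.9% at 72 h LCM.

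Against WT, Rescue cells differed in fewer of the genes. At 24 h HCM 3 of 8 were lower (23.2% of all tested genes called in either direction, 11.4% as lower), namely Cgn (-1.17 ± 0.23), Cldn1 (-0.90 ± 0.19) and Cldn4 (-0.56 ± 0.17). The Cldn4 difference was no longer called without Rescue replicate 3 or WT replicate 2 or 3 (-0.42, -0.52 and -0.49). At 24 h LCM, where 24.8% were called, 11.4% as lower and 13.5% as higher, Cldn1 was lower (26.4, 27.3 and 24.9 CPM in Rescue against 63.2, 62.8 and 63.6 in WT, -1.27 ± 0.19). Ocln (-0.84 ± 0.31) and Cgn (-0.71 ± 0.24) were lower as well. The Ocln call was lost whichever of the 6 libraries was left out (-0.98 to -0.76), and the Cgn call without Rescue replicate 1 or 3 or WT replicate 1 or 2 (-0.68 to -0.57). Tjp3, called higher, had 9, 14 and 7 counts in Rescue and 2, 2 and 0 in WT, and that call was lost without WT replicate 3. With the WT libraries set to the floor, its level was at least 2.95-fold higher in Rescue. Without each of the 6 libraries in turn, 2 or 3 genes were called: 2 without Rescue replicate 1 or 3 or WT replicate 1, 2 or 3.

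At 72 h LCM (32.4% called, 17.9% as higher and 14.6% as lower) Cldn4 was higher in Rescue than in WT, at 191, 232 and 201 against 97.5, 90.4 and 108 CPM (1.07 ± 0.17). F11r was higher too, at 84.1, 82.5 and 86.6 against 66.4, 57.0 and 64.3 CPM (0.43 ± 0.10). Cldn1 was lower (-0.76 ± 0.19), so the claudins differed from WT in opposite directions. At 72 h HCM (36.2% called, 19.5% as higher and 16.7% as lower) F11r was higher (0.47 ± 0.10) and Cldn4 lower (-0.45 ± 0.17), the latter a call lost when any of the Rescue replicates or WT replicate 3 was left out (-0.50 to -0.31). Without TMM factors the Cldn4 difference at 72 h HCM was -0.02 and not called, F11r was at 0.88 and 3 genes were called, all higher, while at 72 h LCM F11r (0.40) and at 24 h LCM Ocln (-0.98) and Cgn (-0.85) were no longer called. Marveld2 and Tjp1 were not called in any of the 4 cultures, with log2 fold changes of -0.38 to 0.41 for Marveld2 and -0.32 to 0.55 for Tjp1. Over all genes, leaving out the TMM factors took the share of calls higher in Rescue from 51.0% to 66.2% at 24 h HCM, from 53.9% to 80.1% at 72 h HCM and from 54.2% to 43.9% at 24 h LCM.

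Calcium starts junction assembly, so HCM was compared with LCM within each genotype. In WT at 24 h, all 8 tested genes were higher in HCM (14.2% of all tested genes called in either direction, 7.69% as higher). Cldn4 rose from 80.7, 90.9 and 88.1 CPM in LCM to 337, 409 and 422 CPM in HCM (2.17 ± 0.18, adjusted p = 6.15e-10), and no LCM library came near the HCM libraries. Cgn (1.70 ± 0.24), Marveld2 (1.49 ± 0.30), Cldn1 (1.42 ± 0.19) and Ocln (1.39 ± 0.31) rose by similar amounts, F11r by 0.64 ± 0.10 and Tjp1 by 0.89 ± 0.26. The Tjp1 call was lost without WT HCM replicate 1 (0.59) or WT LCM replicate 2 or 3 (0.77 and 0.89). Tjp3 was at least 3.06-fold higher in HCM than in LCM, with the LCM libraries set to the floor, a call lost without WT LCM replicate 3. In a fit of only these 6 libraries with the replicate number as a block, 7 genes were called and Tjp3 did not pass the filter on low counts. Without TMM factors 6 were called, and F11r (0.35) and Tjp1 (0.61) were not. At 72 h in WT, 3 genes were higher in HCM (21.4% called, 10.6% as higher): Cldn4 (1.21 ± 0.17), Cgn (1.18 ± 0.23) and Cldn1 (0.92 ± 0.19). Marveld2 had a difference of -0.05 (95% interval -0.66 to 0.55) and F11r of 0.04 (-0.17 to 0.24).

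In PKP4-KO at 24 h, few genes of any kind differed between the media (2.83% of all tested genes, 1.44% as higher in HCM), and 4 of the 8 were among the latter. Cldn1 was at 6.66, 8.12 and 7.02 CPM in HCM and 1.90, 3.36 and 3.28 CPM in LCM (1.33 ± 0.21, adjusted p = 0.000198), without overlap. Ocln (1.98 ± 0.41), Marveld2 (1.83 ± 0.43) and Cgn (0.99 ± 0.27) were called from few counts. When PKP4-KO libraries were left out singly, 2 genes were called without HCM replicate 1, HCM replicate 2 or LCM replicate 2, and 1 without LCM replicate 3. Leaving out LCM replicate 1 cost the call of Cgn (0.97). With only these 6 libraries in the edgeR fit, 0 of 6 genes tested were called and 4 had an unadjusted p under 0.05, with Cldn1 at 1.37 and Cgn at 0.99, while DESeq2 on all libraries called 5. Without TMM factors Cgn (1.01) was not among 4 called. Cldn4 was at 13.7, 12.1 and 12.04 CPM in HCM and 8.39, 8.43 and 7.77 CPM in LCM (0.62 ± 0.18, adjusted p = 0.0503), not called although the groups did not overlap. Its response to calcium was smaller in PKP4-KO than in WT (difference of the responses -1.55 ± 0.24, adjusted p = 0.000225), as was that of F11r (-0.61 ± 0.14, adjusted p = 0.0108). Without TMM factors the F11r difference was -0.32 and not called, and that of Cldn4 was -1.24. Cldn4 and F11r were the 2 genes of 8 called in this test, beside 4.02% of all tested genes in either direction and 2.79% with a smaller or more negative response in PKP4-KO. For Cldn1 the responses differed by -0.09, with a 95% interval of -0.67 to 0.49.

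At 72 h, more of the genes responded in PKP4-KO than in WT. In PKP4-KO, 6 of 8 genes were higher in HCM than in LCM (32.6% called, 12.9% as higher), led by Cldn4 (211, 154 and 142 CPM in HCM against 28.9, 39.2 and 23.6 CPM in LCM, 2.47 ± 0.18), Cgn (2.25 ± 0.25) and Cldn1 (2.1 ± 0.20). The response exceeded that of WT for Cldn4 by 1.25 ± 0.24, for Cldn1 by 1.19 ± 0.27, for Ocln by 1.62 ± 0.48 and for F11r by 0.48 ± 0.14 (4 of 8 called, 5.74% of all tested genes in either direction, 1.85% as higher). The Ocln call was lost in 9 of the 12 fits without 1 of the libraries concerned (1.36 to 1.72) and that of F11r in 11 (0.42 to 0.52). The number called was 2 to 4 over these 12 fits. It was 2 without PKP4-KO HCM replicate 1, 2 or 3, PKP4-KO LCM replicate 2 or 3 or WT HCM replicate 1 or 3 or WT LCM replicate 3. Without TMM factors only Cldn4 was called (0.93), and the F11r rise from LCM to HCM in PKP4-KO, 0.51 ± 0.10, became -0.18 and the Marveld2 difference 0.73, neither of them called, with the median of all genes moving from -0.08 to -0.77.

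In Rescue, 6 genes were higher in HCM at 24 h (12% called, 6% as higher), from Ocln (1.93 ± 0.32) and Cldn1 (1.80 ± 0.19) to Tjp1 (0.84 ± 0.26). The Tjp1 call was lost without Rescue HCM replicate 2 or 3 or LCM replicate 2 or 3 (0.71 to 0.87). It was also lost without TMM factors (0.80). At 72 h, 2 were higher (24.9% called, 13.0% as higher), Cldn1 at 111, 108 and 119 CPM in HCM against 36.2, 21.7 and 25.7 CPM in LCM (2.02 ± 0.19) and Cgn (0.92 ± 0.23). Cldn4 was at 178, 175 and 150.0 CPM in HCM and 191, 232 and 201 CPM in LCM, a difference of -0.31 with a 95% interval of -0.66 to 0.03. The response in Rescue was below that in PKP4-KO for 5 genes at 72 h (31.5% of all tested genes called, 13.4% as lower), most for Cldn4 (-2.78 ± 0.24) and Marveld2 (-1.95 ± 0.50), and without TMM factors for Cldn4 alone (-1.97). At 24 h edgeR called 0 of 8 (1.41%) with 1 at an unadjusted p under 0.05, Cldn4, and DESeq2 also called 0. Cldn1 was called higher in HCM than in LCM in each of the 3 genotypes at both times, but in WT at 72 h not without TMM factors (0.64) and in PKP4-KO at 24 h not in the fit of those 6 libraries.

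The scaling also bore on the calcium comparisons over all genes. Without TMM factors, the share of calls higher in HCM went from 54.3% to 24.8% in WT at 24 h, from 49.6% to 25.6% in WT at 72 h, from 39.5% to 8.17% in PKP4-KO at 72 h (50.8% with DESeq2) and from 52.0% to 63.3% in Rescue at 72 h. For the difference in response between PKP4-KO and WT, the share of positive calls went from 30.6% to 56.8% at 24 h and from 32.3% to 6.75% at 72 h (42.7% with RLE factors, 44.2% with DESeq2). Between Rescue and PKP4-KO it went from 70.4% to 86.1% at 24 h and from 57.4% to 91.4% at 72 h.

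**Figure D3:**
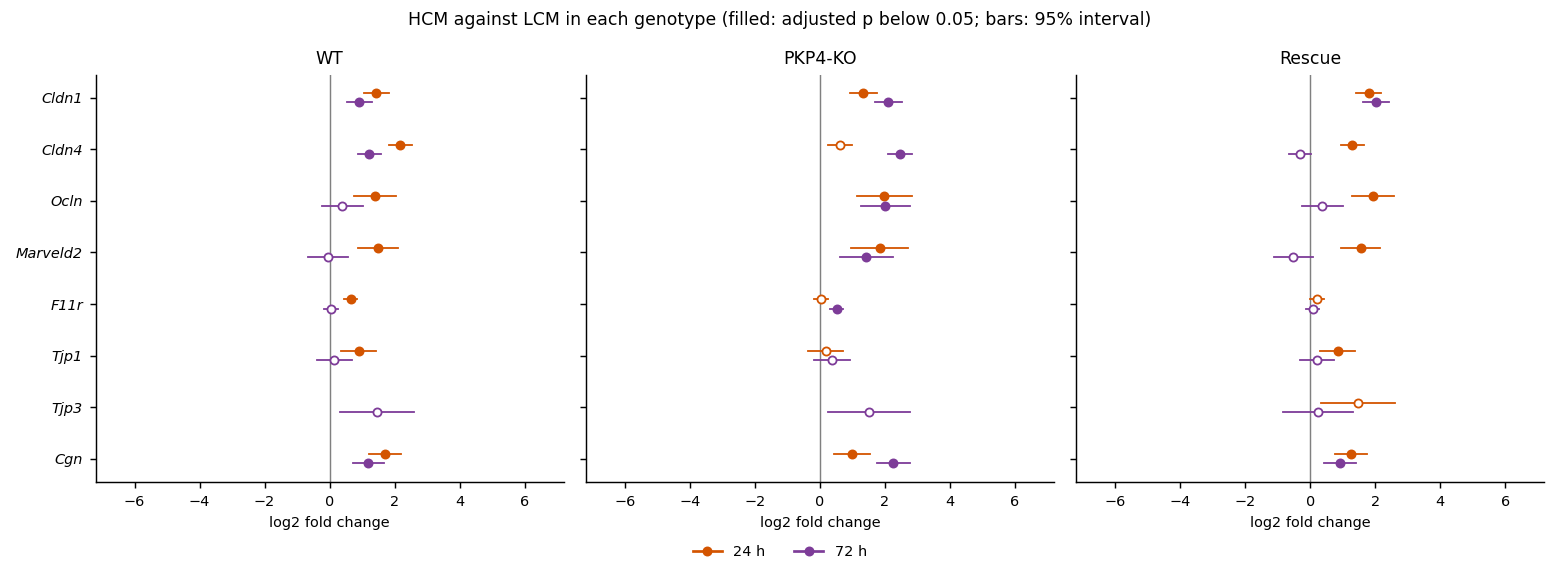
Log2 fold changes of HCM against LCM for the 8 tested genes in WT, PKP4-KO and Rescue at 24 h (orange) and 72 h (purple); points are filled where the adjusted p-value was below 0.05, bars are 95% intervals, and Tjp3 is left out where a group was at or under the floor. Cldn1 lies right of 0 in all 3 panels, while Cldn4 is largest at 24 h in WT and at 72 h in PKP4-KO.

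From 24 h to 72 h in HCM, Cldn1, Cldn4, Ocln and F11r fell in WT and rose in PKP4-KO. In WT, 6 of 8 genes were lower at 72 h and Tjp3 was higher (17.8% of all tested genes called, 8.69% as lower and 9.16% as higher). Ocln (-1.41 ± 0.31) and Marveld2 (-1.38 ± 0.30) fell most, and Tjp1, Cldn1, Cldn4 and F11r changed by -0.98 to -0.66. Cgn, at -0.31, was not called. Tjp3 had 21, 30 and 16 counts at 72 h after 9, 8 and 9 at 24 h (1.62 ± 0.57), a call lost whichever of the 6 libraries was left out (1.51 to 1.77). The Tjp1 call was lost without WT 72 h replicate 3 (-0.73) or WT 24 h replicate 1 (-0.68). With only these 6 libraries in the fit, 3 genes were called in place of 7, and without TMM factors Tjp3 (1.39) was not called.

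In PKP4-KO, 6 of 8 genes were higher at 72 h HCM than at 24 h HCM (55.8% called, 24.3% as higher). Cldn4 went from 13.7, 12.1 and 12.04 CPM to 211, 154 and 142 CPM, a 13.4-fold rise (3.74 ± 0.19, adjusted p = 3.43e-15). Cgn went from 4.80, 3.47 and 2.36 CPM to 32.9, 23.4 and 24.5 CPM, 7.60-fold higher (2.91 ± 0.26). For neither gene did a 24 h library come near the 72 h libraries. Cldn1 (1.41 ± 0.20), Ocln (1.38 ± 0.35) and F11r (0.74 ± 0.10) rose too, and Tjp3 went from 4, 1 and 1 counts to 8, 5 and 14 (3.38 ± 0.69). Tjp1 stayed low, at 16.6, 17.7 and 14.9 CPM at 24 h and 22.2, 13.4 and 13.6 CPM at 72 h (95% interval of the difference -0.55 to 0.55), and Marveld2 was at 1.52, 1.89 and 1.48 CPM at 72 h (0.79 ± 0.37, adjusted p = 0.0727). Without TMM factors, which moved the median of all genes from -0.09 to -1.16, the rises of Cldn4 (2.67), Cgn (1.83) and Tjp3 (2.33) remained called, those of Cldn1 (0.34) and Ocln (0.30) did not, and F11r was at -0.33.

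The change over time in HCM was larger in PKP4-KO than in WT for 6 of 8 genes (26.6% of all tested genes called in either direction, 10.8% as higher), a comparison added after the values were seen. The difference of the changes was 4.51 ± 0.25 for Cldn4 and 3.22 ± 0.34 for Cgn, and 2.80, 2.34, 2.17 and 1.40 for Ocln, Cldn1, Marveld2 and F11r. For Tjp1 it was 0.98 ± 0.38 (adjusted p = 0.0545). Without TMM factors 5 of the 6 were still called, Cldn4 at 3.70, and Marveld2 (1.30) was not. The Cldn4 and Cgn rises in PKP4-KO were called under both scalings.

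In LCM, PKP4-KO cells also had higher levels at 72 h than at 24 h for 5 of 8 genes (26.1% called, 12.4% as higher), Cldn4 at 28.9, 39.2 and 23.6 CPM after 8.39, 8.43 and 7.77 CPM (1.90 ± 0.18) and Cgn at 7.07, 3.10 and 6.60 CPM after 1.76, 2.21 and 1.45 CPM (1.64 ± 0.27). The other 3 rested on few counts or single libraries. Ocln (1.35 ± 0.43) was not called without 72 h replicate 1 (0.99) or 24 h replicate 1 or 3 (1.18 and 0.96). Cldn1 (0.65 ± 0.21) was not called without 72 h replicate 2 or 3 (0.59 and 0.56) or 24 h replicate 1 (0.44). Tjp3 was at least 2.41-fold higher at 72 h, with the 24 h libraries set to the floor, a call lost without 72 h replicate 1 or 24 h replicate 2. Only 3 genes were called without 72 h replicate 1, and without TMM factors Ocln (0.99) and Cldn1 (0.25) were not. In WT in LCM only Tjp3 was called (9.96% of all tested genes called, 5.29% as higher), and without 24 h replicate 3 edgeR called 0. Its level was at least 3.43-fold higher at 72 h, with the 24 h libraries set to the floor. The differences of the other 7 genes in WT in LCM lay between -0.42 and 0.21. The change over time in LCM was larger in PKP4-KO than in WT for 4 of 8 genes (5.25% called, 3.43% as higher): Cldn4 (1.71 ± 0.24), Ocln (1.76 ± 0.53), Cgn (1.43 ± 0.35) and Cldn1 (1.07 ± 0.28). Of the 12 fits without 1 library, the Ocln call was lost in 9 (1.38 to 1.87), that of Cldn1 in 4 (0.86 to 1.01) and that of Cgn in 2 (1.23 and 1.28), and 2 to 4 genes were called. Only 2 were called without PKP4-KO 72 h replicate 1 or 3, PKP4-KO 24 h replicate 1 or 3 or WT 72 h replicate 1.

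In Rescue cells fewer genes differed between the times. In HCM, Marveld2 (-1.11 ± 0.29), Ocln (-0.99 ± 0.31) and Cldn4 (-0.66 ± 0.17) were lower at 72 h (3 of 8, 24.3% called, 10.7% as lower), and the Ocln call was lost without 72 h replicate 1 or 3 or 24 h replicate 2 (-0.97, -0.97 and -0.89). Cldn1 had a difference of 0.31 (95% interval -0.07 to 0.69). In LCM, Cldn4 rose by 0.94 ± 0.17 and Marveld2 by 0.96 ± 0.30 (2 of 8, 9.81% called, 6.84% as higher), and the Marveld2 call was lost when any 72 h replicate or 24 h replicate 3 was left out (0.67 to 1.02). Without TMM factors, neither the Ocln difference in HCM (-0.94) nor the Marveld2 difference in LCM (0.83) was called in Rescue.

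Over all genes, the share of calls higher at 72 h went without TMM factors from 51.3% to 30.0% in WT in HCM, from 53.2% to 27.3% in WT in LCM, from 43.6% to 12.6% in PKP4-KO in HCM and from 47.6% to 20.9% in PKP4-KO in LCM. For the difference over time between PKP4-KO and WT in HCM it went from 40.5% to 9.76%, and to 50.9% with DESeq2.

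**Figure D4:**
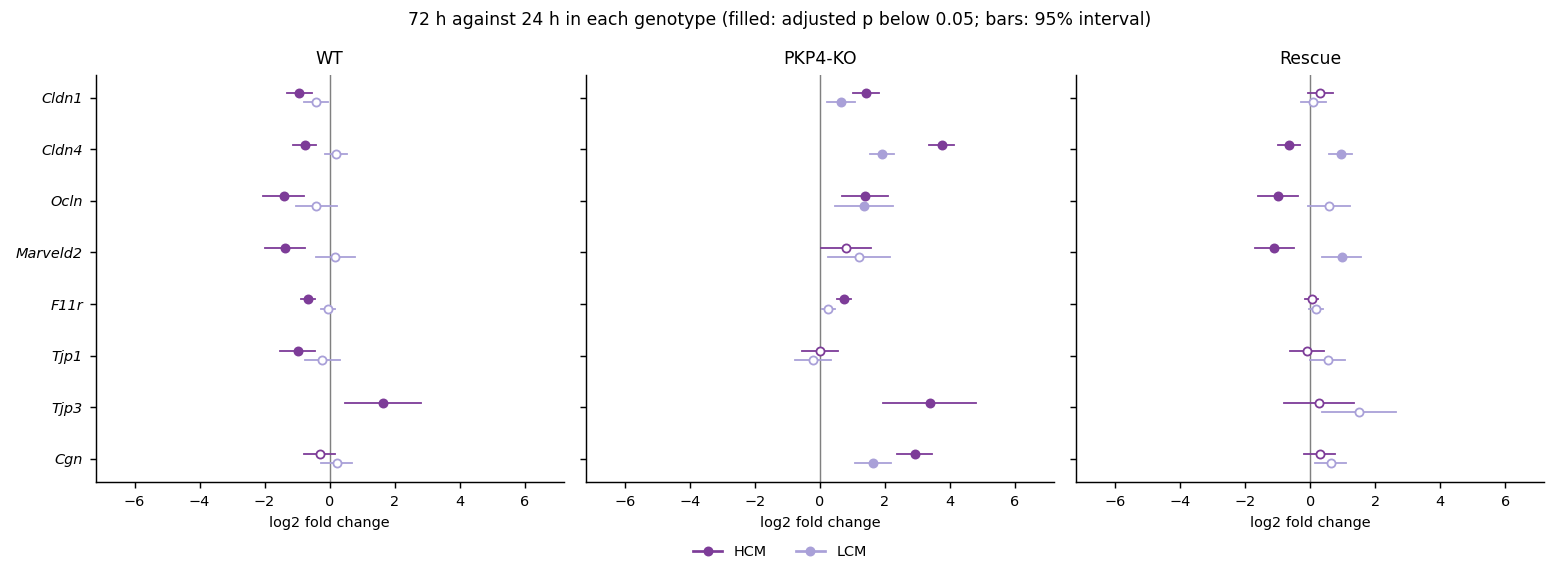
Log2 fold changes of 72 h against 24 h for the 8 tested genes in WT, PKP4-KO and Rescue in HCM (dark purple) and LCM (light purple); points are filled where the adjusted p-value was below 0.05, bars are 95% intervals, and Tjp3 is left out where a group was at or under the floor. In HCM, the points of Cldn1, Cldn4, Ocln and F11r lie left of 0 in WT and right of 0 in PKP4-KO, with Cldn4, Tjp3 and Cgn farthest right in PKP4-KO.

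Ranked over the 12 groups by mean CPM, 7 of the 8 tested genes had their highest mean in WT at 24 h HCM and all 8 their lowest in a PKP4-KO group in LCM. Tjp3 was highest in Rescue at 72 h HCM. For Cldn1 the 4 PKP4-KO groups filled the last 4 places, from 19.4 ± 1.46 CPM (SD, n = 3) at 72 h HCM to 2.85 ± 0.819 CPM at 24 h LCM, and none of them overlapped its neighbour in the order. Marveld2, Tjp1 and Ocln had the PKP4-KO groups in the last 4 places as well. For Tjp1 each of these groups overlapped its neighbour among them in the order, from 16.4 ± 5.04 to 12.6 ± 1.66 CPM. For Cldn4, PKP4-KO at 72 h HCM (169 ± 36.9 CPM) held the fifth place, overlapping Rescue at 72 h LCM above and Rescue at 72 h HCM below it. For F11r it held the second, with neighbouring groups overlapping all the way down from there. Both places depended on the scaling. On the TPM scale, which uses no TMM factors, that group had the lowest mean of F11r among all groups (26.4 ± 2.20 TPM). Its Cldn4 mean there (72.5 ± 17.4 TPM) lay below those of every WT and Rescue group, of which WT at 72 h LCM was the lowest (131 ± 13.1 TPM).

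Likeness was read over the 12 group means of log2 CPM, which share genotypes, media and libraries between genes. The 28 pairs of members had Pearson correlations of 0.504 to 0.97, with a median of 0.82. For the members with all tested genes the median was 0.0054. In that median positive and negative values cancel, so it does not show how alike other genes lower in PKP4-KO are. The closest pairs were Ocln with Marveld2 (0.97), Cldn1 with Ocln (0.96) and Cldn4 with Cgn (0.95). Tjp3 and F11r stood farthest from the others, with values of 0.504 to 0.79 for Tjp3 and 0.612 to 0.84 for F11r. Among all genes, Ocln and Marveld2 were both most like Epb41l5 (0.99 and 0.97), Tjp1 was most like Uso1 (0.99), Cldn4 like Cadm4 and Cgn like Tmem159 (0.98 each). Cldn1 was most like Mfsd6 (0.97), Tjp3 like the gene listed as X4921531C22Rik (0.98), and F11r like Arhgap40 (0.90). These values describe 12 points and carry no test.

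The rest of the tight junction was described with a list of 62 other genes, of which 38 passed the filter on low counts. At 24 h HCM 22 of them were lower and 4 higher in PKP4-KO than in WT, at 72 h HCM 25 and 4, at 24 h LCM 22 and 5, and at 72 h LCM 22 and 4. Beside these stand 22.2%, 29.9%, 20.6% and 23.8% of all tested genes called as lower, and 42.8%, 51.8%, 40.2% and 45.1% called in either direction. Their median log2 fold changes of -1.04, -1.06, -0.83 and -0.77 stand beside the members' -3.80, -0.79, -3.30 and -1.88 in the same order, so that the members' median was the larger in size in 3 cultures and the smaller at 72 h HCM. In Rescue against PKP4-KO, 22, 29, 23 and 25 of the 38 were higher and 5, 1, 4 and 4 lower in the same order of cultures. Of all tested genes, 21.7%, 37.2%, 18.2% and 23.3% were called as higher there, and 40.8%, 66.7%, 33.7% and 41.5% in either direction. By group at 24 h HCM, 9 of 14 tested plaque scaffolds were lower and 4 higher. Among the other kinds shown in the plot by kind of protein, the lower genes were 3 of 5 tested claudins, 2 of 3 MARVEL and tricellular genes, 2 of 7 polarity genes and 1 of 2 immunoglobulin-like genes.

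Of those called in all 4 comparisons, the 5 with the largest mean change were named. Cldn23, a claudin of differentiated epithelia, was at 0.403 CPM in PKP4-KO against 31.8 in WT at 24 h HCM (-6.23 ± 0.38), a larger fall than that of any member, and differed by -1.33 ± 0.29 at 72 h HCM. Magi3, a scaffold with PDZ domains, differed by -3.37 ± 0.52 at 24 h HCM and -2.20 ± 0.49 at 72 h LCM. Pals1, the scaffold of the Crumbs polarity complex, differed by -2.07 ± 0.46 at 24 h HCM and -3.41 ± 0.57 at 72 h HCM. Amot and Amotl2 encode angiomotins, which bind polarity proteins and YAP. Amotl2 differed by -1.11 ± 0.29 at 24 h HCM and -2.67 ± 0.31 at 72 h LCM, while Amot stayed below 1 CPM on average in all WT and PKP4-KO groups, had 0 counts in the PKP4-KO libraries at 72 h LCM, and was called from few counts. Cgnl1, which encodes the cingulin relative paracingulin and was picked after its values were seen, was higher in Rescue than in WT in all 4 cultures, by 1.91 ± 0.54 at 72 h HCM (3.55 CPM against 0.935) to 4.97 ± 0.67 at 72 h LCM (2.99 CPM against 0.0882).

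**Figure D5:**
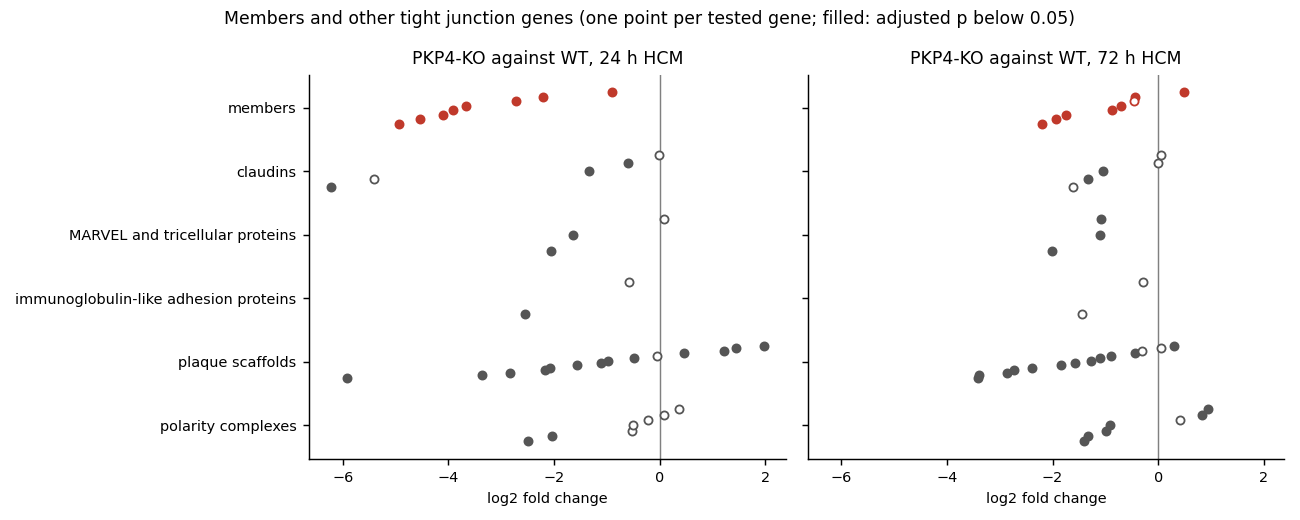
Log2 fold changes of PKP4-KO against WT at 24 h HCM and 72 h HCM for the 8 tested members (red) and the tested genes of 5 kinds from the list of other tight junction genes (dark grey), by kind of protein; each point is a gene, filled where the adjusted p-value was below 0.05. At 24 h HCM 7 of the 8 member points lie left of -2, and most plaque scaffolds lie left of 0 at both times.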

How the data were processed

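The authors prepared stranded paired-end libraries from poly(A) RNA. Their HISAT2 2.1.0 alignments to mm39, extended by the GFP-PKP4 sequence, were cleared of secondary hits (SAMtools 1.10) before featureCounts 2.0.0 assigned reads to genes. They deposited these counts, whole numbers without normalization, with a gene length. The strand setting is not given in the sources used here. No row was a total or unnamed.

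The counts of all 55358 genes entered edgeR 4.0.16 in R 4.3.3: genes were filtered with filterByExpr, library sizes adjusted by TMM, and glmQLFit and glmQLFTest (quasi-likelihood) run in 1 model with 12 group means and 24 residual degrees of freedom. P-values were two-sided and adjusted after Benjamini and Hochberg over 15114 genes. TPM used the deposited lengths. Replicate numbers were checked for pairing by the correlation of same-numbered libraries' deviations from their group means. Of 24 comparisons, 2 had all 3 above 0.1, Rescue against PKP4-KO at 72 h LCM (0.3, 0.718 and 0.375) and HCM against LCM in WT at 24 h (0.483, 0.348 and 0.35), as a hint from the data and not from the labels. Intervals are 95%, and lower bounds use 3 counts in each library of the group at the floor. Between libraries of a group the chi-square per gene was 5.63 to 192.7 over 36 pairs, so none was a copy. Positions and windows came from GRCm39 and GENCODE M39, in which 98.9% of genes matched by Ensembl identifier. The analysis was tested on simulated counts.

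The 9 members, the lists and the rules were chosen with earlier results of these data known. Named genes were the members, the 5 other tight junction genes called in all 4 comparisons of PKP4-KO with WT with the largest mean change, and for each member the gene of highest correlation. Cgnl1 was named outside this rule after its values were seen, and marker genes as checks. The comparison of changes over time was added after seeing the data. Alternatives were no TMM factors, RLE size factors, DESeq2 1.42.0, no filter, a minimum of 10 counts in all libraries, a fit of the compared groups alone, each library left out, the replicate number as a block and, added later, omission of the PKP4-KO 72 h HCM libraries.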

Additional observations from a re-analysis of the deposited data

Results flagged for a closer look

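Tests of a difference between responses called 21 results for the tight junction genes, with edgeR's quasi-likelihood test and adjusted p-values below 0.05.

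The difference in the response to calcium (HCM against LCM) between PKP4-KO and WT at 24 h was called for Cldn4 (-1.55 ± 0.24) and F11r (-0.61 ± 0.14). At 72 h it was called for Cldn4 (1.25 ± 0.24), Cldn1 (1.19 ± 0.27), Ocln (1.62 ± 0.48) and F11r (0.48 ± 0.14). The sign for Cldn4 and F11r was thus negative at 24 h and positive at 72 h. Without TMM factors F11r was called at neither time (-0.32 and 0.09), while Cldn4 was called at both (-1.24 and 0.93). The PKP4-KO libraries at 72 h HCM, which depend most on the scaling, enter the 72 h difference. Whether the 2 times differ was not tested.

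The difference in the response to calcium between Rescue and PKP4-KO at 72 h was called for Cldn4 (-2.78 ± 0.24), Marveld2 (-1.95 ± 0.50), Ocln (-1.64 ± 0.48), Cgn (-1.34 ± 0.34) and F11r (-0.44 ± 0.14). The PKP4-KO libraries at 72 h HCM, whose TMM factors stand apart from the other groups, enter this difference.

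The difference in the change from 24 h to 72 h between PKP4-KO and WT was called in HCM for Cldn4 (4.51 ± 0.25), Cgn (3.22 ± 0.34), Ocln (2.80 ± 0.47), Cldn1 (2.34 ± 0.27), Marveld2 (2.17 ± 0.48) and F11r (1.40 ± 0.14). In LCM it was called for Ocln (1.76 ± 0.53), Cldn4 (1.71 ± 0.24), Cgn (1.43 ± 0.35) and Cldn1 (1.07 ± 0.28). Groups of 3 libraries were too small to test for single outlying libraries.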

How the results depend on the processing

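Of 2035 values of called genes under an alternative, 1842 kept their direction and their call, 189 kept the direction without the call and 4 changed sign, all 4 of F11r without TMM factors: PKP4-KO against WT at 72 h HCM (-0.28), HCM against LCM in PKP4-KO at 72 h (-0.18), 72 h against 24 h in PKP4-KO in HCM (-0.33) and the calcium response of Rescue minus PKP4-KO at 72 h (0.39). Of 451 counts of called members, 383 stayed within 1.5 times.

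Asking for at least 10 counts in every library removes Ocln, Marveld2 and Tjp3 by construction. It gave 5 called genes for PKP4-KO against WT at 24 h HCM, for Rescue against PKP4-KO at 24 h HCM, 24 h LCM and 72 h LCM and for HCM against LCM in WT at 24 h, and 2 for Rescue against PKP4-KO at 72 h HCM and Rescue against WT at 24 h LCM. For 72 h against 24 h it gave 4 in WT in HCM, 0 in WT in LCM (edgeR, 5 genes tested, 1 at an unadjusted p under 0.05, while DESeq2 without that minimum tested 8 and called 1) and 1 in Rescue in each medium, and 3 for the calcium response of Rescue minus PKP4-KO at 72 h.

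Without TMM factors, 8 genes were called for Rescue against PKP4-KO at 72 h HCM, 2 for Rescue against WT at 24 h LCM, 3 for 72 h against 24 h in PKP4-KO in LCM and 1 in Rescue in LCM, and 1 each for the calcium response of PKP4-KO minus WT at 24 h and 72 h and of Rescue minus PKP4-KO at 72 h and for the difference over time in LCM. DESeq2 called 5 for Rescue against WT at 24 h HCM and 4 for 72 h against 24 h in Rescue in LCM. With no filter on low counts, 1 was called for Rescue against WT at 72 h HCM, 72 h against 24 h in Rescue in LCM and the calcium response of PKP4-KO minus WT at 24 h, and 2 for that response at 72 h and the difference over time in LCM. With only the groups compared in the fit, 2 were called for Rescue against WT at 24 h LCM, 0 for HCM against LCM in PKP4-KO at 24 h (edgeR, 6 tested, 4 at an unadjusted p under 0.05, while DESeq2 on all libraries tested 8 and called 5), 3 for 72 h against 24 h in WT in HCM, 2 in PKP4-KO in LCM, 1 for the calcium response of PKP4-KO minus WT at 24 h, and 2 for that at 72 h and the difference over time in LCM. The cause was not tested.

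With each library left out in turn, the number called ranged from 4 to 7 for PKP4-KO against WT at 72 h HCM, from 1 to 2 for Rescue against WT at 72 h HCM and 2 to 3 at 24 h LCM, from 1 to 4 for HCM against LCM in PKP4-KO at 24 h, from 0 to 1 for 72 h against 24 h in WT in LCM, 3 to 4 in PKP4-KO in LCM and 1 to 2 in Rescue in LCM, and from 2 to 4 for the calcium response of PKP4-KO minus WT at 72 h and the difference over time in LCM. Omission of the 3 PKP4-KO libraries at 72 h HCM moved none of the counts that could then be computed by over 1.5 times.

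The replicate number as a block in the model of all groups ended the calls of Tjp3 for 72 h against 24 h in WT in HCM (1.63) and of F11r for the calcium response of PKP4-KO minus WT at 72 h (0.48) and moved no count by over 1.5 times. In the 2 comparisons in which the numbers correlated, a replicate block within only those libraries gave 7 called genes each in place of 8, F11r losing its call in one and Tjp3 not passing the filter in the other. Over the 24 comparisons the correlations of same-numbered libraries ranged from -0.649 to 0.718.

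Over all genes, the number called went from 428 to 237 without TMM factors, 227 with no filter, 817 with DESeq2 and 10 with only the groups compared for HCM against LCM in PKP4-KO at 24 h. With only the groups compared it went from 6278 to 3708 for Rescue against PKP4-KO at 72 h LCM and from 2143 to 1375 for HCM against LCM in WT at 24 h. For 72 h against 24 h it went from 2697 to 716 in WT in HCM, 1505 to 2284 in WT in LCM, 3952 to 1710 in PKP4-KO in LCM, 3676 to 5876 in Rescue in HCM and 1482 to 738 in Rescue in LCM. HCM against LCM in Rescue at 24 h went from 1808 to 1203 with no filter, and in PKP4-KO at 72 h from 4924 to 7929 without TMM factors. For the calcium response of PKP4-KO minus WT, 607 at 24 h became 366 without TMM factors, 349 with no filter and 255 with only the groups compared, and 867 at 72 h became 1304, 503 and 459. For Rescue minus PKP4-KO at 24 h, 213 became 108, 132, 56 and, with DESeq2, 424, and 4765 at 72 h became 7353 without TMM factors. The difference over time went from 4018 to 7328 without TMM factors in HCM and from 794 to 516 with no filter and 439 with only the groups compared in LCM. With single libraries left out, HCM against LCM in PKP4-KO at 24 h ranged down to 213, 72 h against 24 h in WT to 1720 in HCM (without 24 h replicate 1, and 1788 without 72 h replicate 3) and 887 in LCM (without 72 h replicate 1), and the calcium response of Rescue minus PKP4-KO at 24 h to 103. Few counts limit Tjp3 and the PKP4-KO values of Ocln and Marveld2.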

Other observations

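The genes around the tight junction genes were read for the comparison of PKP4-KO with WT at 24 h HCM. Within 5 Mb on each side, the median log2 fold change of the tested neighbours was -0.17 around Cldn1 (45 genes), -0.16 around Cldn4 (130 genes), 0.14 around Ocln and Marveld2 (70 genes), 0.14 around F11r (79 genes), -0.38 around Tjp1 (38 genes), -0.31 around Cgn (190 genes), 0.25 around Tjp3 (181 genes) and 0.05 around Cldn7 (137 genes). Around Pkp4 itself it was -1.18 over 19 genes in that comparison and 0.95 for Rescue against PKP4-KO at 24 h HCM. The neighbours are not independent of each other, and no test was made.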
